A study of Mus musculus with 4 samples.

Results

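The 28 genes described here make cholesterol, sense it or move it out of the cell. They were taken by symbol from a fixed list of 18 synthesis enzymes, 5 genes of the control of sterol regulatory element-binding proteins (SREBPs), 1 sterol transfer protein, and the liver X receptor (LXR) gene Nr1h2 with 3 LXR targets. All 28 were found among the 32285 genes of each matrix, and all 28 passed the low-count filter that left 13487 genes for the test in all cells. The cells were splenic CD8+ T cells of gBT-I.CD45.1 transgenic mice, which carry 1 T cell receptor against a herpes simplex virus peptide and the CD45.1 allele in all groups. They were activated with peptide-pulsed splenocytes of B6 mice and 6 µg of LPS, and kept in 12.5 U/ml of human IL-2. From day 3 to day 5 the cultures received 0.5 mM sodium butyrate, a bacterial short-chain fatty acid that inhibits histone deacetylases, or PBS (control). Viable CD8+ cells with the Vα2 receptor chain were sorted and captured in droplets on day 6, a day after the stated end of treatment. Each group had 2 libraries, 1 from each of 2 mice named mouse 2 and mouse 3 in the library names, all of batch 1, and the ages and sexes of the mice were not given in the sources used here.

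Cells build cholesterol from acetyl-CoA through mevalonate, farnesyl diphosphate, squalene and lanosterol, and dividing T cells need it for new membranes. When membranes of the endoplasmic reticulum are poor in sterol, SCAP escorts the SREBP proteins to the Golgi, where proteases free the part that enters the nucleus and switches on the synthesis genes. INSIG proteins hold SCAP back when sterol is plentiful, and oxysterols then activate LXR, which switches on efflux pumps.

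Depth was counted in unique molecular identifiers (UMIs, single transcripts), and the 4 libraries held 64388093 to 76522004 of them. The filters kept 2059 to 2664 cells a library, with 20494 UMIs in the median cell of the shallowest library and 24816 in that of the deepest. Pairs of libraries shared between 1 and 6 cell barcodes. The summed level of 6 CD8 T cell markers was 2748 and 2786 CPM for the control libraries and 2578 and 2879 CPM for butyrate. CPM is a gene's share of the UMIs of all kept cells in a library, on a fixed scale, here after division by edgeR's TMM factor for that library, which allows for differences in composition. Without that factor (plain CPM) the same sums were 2927 and 3003 against 2403 and 2689. Of 7 myeloid markers, Adgre1, C1qa and C1qb had no UMI in any library, while Cd68 and Itgam were higher in butyrate, with values given beside the LXR genes.

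The promoters are shown first because the SREBPs act there with partner factors, among them NF-Y, which binds CCAAT, and SP1, which binds GGGCGG. RefSeq (GRCm38.p6) gave 31 promoters for 23 of the 28 genes, each from 250 bases before to 50 bases after a start. No promoter was matched for Fdps, Fdft1, Sqle, Stard4 and Abcg1. CCAAT was present, on either strand, in a promoter of 19 of the 23 genes (82.6%) and of 14 of the 15 synthesis genes (93.3%). Among the 10196 tested genes with a promoter, 43.1% held it. GGGCGG was present in 21 of 23 genes (91.3%), against 67.6% of the tested genes. The sterol element TCACNCCAC, searched with these exact letters on both strands, was in 1 of 23, Hmgcs1, against 1.37% of the tested genes. In all 32851 mouse promoters of this length the shares were 37.4% for CCAAT, 35.7% for GGGCGG and 1.24% for TCACNCCAC. For the other 22 genes the search says only that these letters are not in these windows.

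Parts of 5 promoters follow, 5′ to 3′ on the strand of the gene, with CCAAT (or ATTGG, its reverse complement) and the sterol element of Hmgcs1 in capitals. They run from 250 bases before the RefSeq start and leave out bases inside the GENCODE M21 gene, 17 for Lss, 49 for Insig1 and 36 for Hsd17b7. The genes were chosen with their changes known: Hmgcs1 and Mvk of the early steps, Lss and Insig1 with large decreases, and Hsd17b7, which did not pass the test. Hmgcs1 is at chr13:119690101-119690350 (plus strand), Mvk at chr5:114444019-114444268 (plus), Lss at chr10:76531355-76531587 (plus), Insig1 at chr5:28071162-28071362 (plus) and Hsd17b7 at chr1:169969242-169969455 (minus).
Hmgcs1: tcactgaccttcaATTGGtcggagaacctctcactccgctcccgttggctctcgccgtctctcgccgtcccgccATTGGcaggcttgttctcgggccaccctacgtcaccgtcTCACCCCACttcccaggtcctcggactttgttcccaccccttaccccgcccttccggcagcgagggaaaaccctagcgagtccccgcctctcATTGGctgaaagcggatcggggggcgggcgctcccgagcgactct
Mvk: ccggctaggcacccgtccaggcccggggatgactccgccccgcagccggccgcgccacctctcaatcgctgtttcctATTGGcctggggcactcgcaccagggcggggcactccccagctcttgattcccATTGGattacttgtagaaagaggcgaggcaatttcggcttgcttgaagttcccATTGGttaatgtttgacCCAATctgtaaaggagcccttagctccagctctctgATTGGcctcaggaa
Lss: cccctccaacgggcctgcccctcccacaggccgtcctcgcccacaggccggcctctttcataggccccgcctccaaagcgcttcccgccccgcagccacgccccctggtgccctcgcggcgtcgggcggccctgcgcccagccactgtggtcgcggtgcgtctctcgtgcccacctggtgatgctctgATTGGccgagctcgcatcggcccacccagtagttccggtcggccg
Insig1: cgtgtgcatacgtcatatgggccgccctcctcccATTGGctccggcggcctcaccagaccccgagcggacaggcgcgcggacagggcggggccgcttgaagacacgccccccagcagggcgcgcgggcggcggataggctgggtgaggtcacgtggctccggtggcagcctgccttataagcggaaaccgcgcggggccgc
Hsd17b7: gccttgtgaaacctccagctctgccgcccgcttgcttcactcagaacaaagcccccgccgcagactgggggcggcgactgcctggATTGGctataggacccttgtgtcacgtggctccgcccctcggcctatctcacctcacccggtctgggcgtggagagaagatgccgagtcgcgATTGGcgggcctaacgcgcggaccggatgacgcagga
These stretches held CCAAT 3 times in Hmgcs1, 5 times in Mvk, 1 time in Lss, 1 time in Insig1 and 2 times in Hsd17b7. Of the copies shown, the one nearest to the start lay 45 bases before it in Hmgcs1 and 216 bases before it in Insig1. The searched window of Hmgcs1 holds a further copy after the start, which is not shown. That of Hsd17b7 holds a further copy 12 bases before the start, among the bases left out. The letters thus stood in genes that fell, in Hsd17b7, which did not pass, and in Tm7sf2, which rose. They do not separate these outcomes.

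Cholesterol synthesis transcripts were lower in the butyrate cultures along nearly the whole pathway. Of the 18 synthesis genes, 16 fell, 1 rose (Tm7sf2) and 1 did not pass the test (Hsd17b7). Of all 13487 genes tested, 35.7% were called lower and 36% higher, so a call by itself was common in this comparison. The median log2 fold change (butyrate over control) was -0.54 for the 18 synthesis genes and -0.01 for all genes. In the 2 pairs of cultures from the same mouse the median of the 18 log2 ratios was -0.61 and -0.49. A gene counted as risen or fallen when its p from edgeR's quasi-likelihood test on summed UMIs, adjusted over all genes tested by the Benjamini-Hochberg method, was under 0.05. The standard error (SE) given is on the log2 scale. The 2 cultures a group come from 2 mice, and the p-values borrow the spread of all genes, so they do not measure the spread between many animals.

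**Figure D1:**
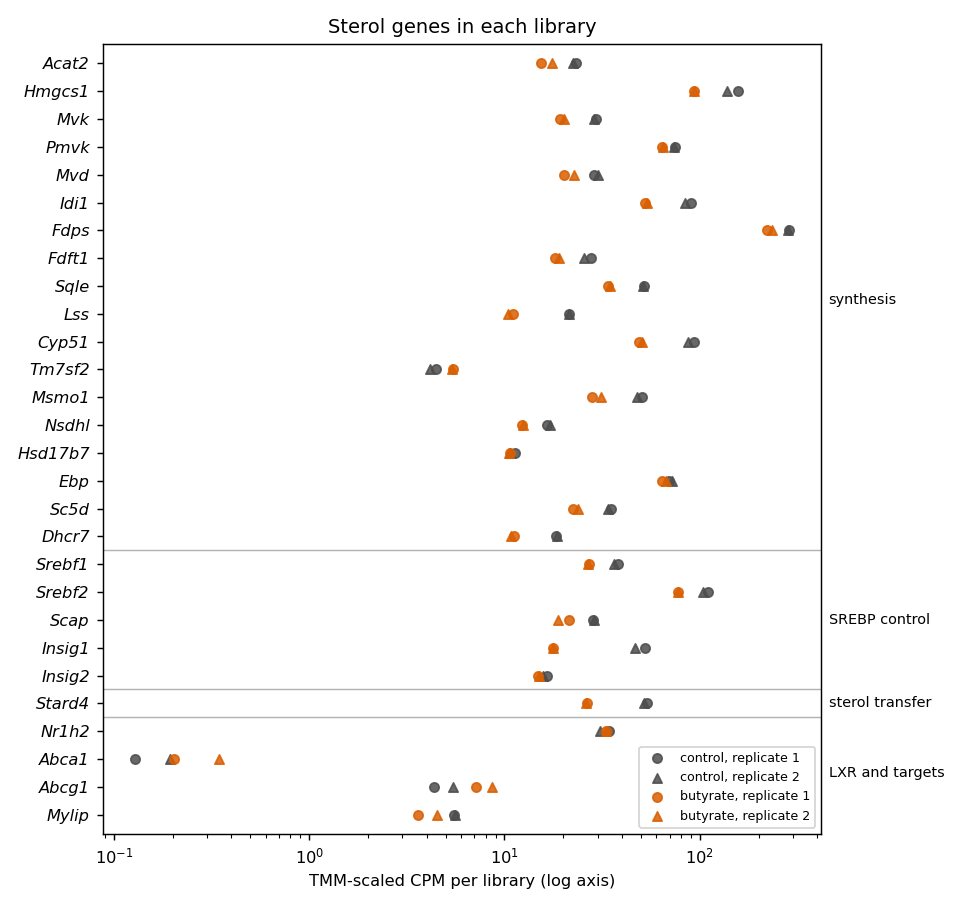
Level of each of the 28 genes in each of the 4 libraries, as TMM-scaled CPM on a log axis. Grey symbols are control and orange symbols butyrate libraries, and circles and triangles are replicates 1 and 2. Both orange symbols lie left of both grey ones for 16 of the 18 synthesis genes and right of them for Tm7sf2. The groups did not overlap, in either direction, for 85.9% of all genes tested.

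Levels are given as CPM scaled by edgeR's TMM factors, in the order of replicates 1 and 2. Acat2, the thiolase that makes acetoacetyl-CoA, had 23.3 and 22.5 CPM in control and 15.5 and 17.5 CPM in butyrate. It fell by 0.47 on the log2 scale (SE 0.06, adjusted p = 8.92e-06). Hmgcs1 (chromosome 13, 119690379 to 119708260 in GRCm38), the synthase that makes HMG-CoA, had 156 and 137 CPM in control and 92.9 and 93.4 CPM in butyrate. The butyrate libraries were close to each other and well below both controls, and Hmgcs1 fell by 0.66 (SE 0.06, adjusted p = 3.61e-07). The next enzymes, which add phosphates to mevalonate and remove a carboxyl group, differed in size of change. Mvk had 29.3 and 28.8 CPM in control and 19.3 and 20.2 CPM in butyrate, and fell by 0.56 (SE 0.05, adjusted p = 1.77e-07). Pmvk had 74.7 and 73.8 CPM against 63.9 and 64.7 CPM, and fell by only 0.21 (SE 0.04, adjusted p = 0.00047). Mvd had 28.8 and 30.0 CPM against 20.2 and 22.7 CPM, and fell by 0.45 (SE 0.06, adjusted p = 7.73e-06). Pmvk therefore had the smallest change of these 7 genes, although its libraries did not overlap between groups.

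Idi1 interconverts the 5-carbon isoprene units from which farnesyl diphosphate is built. It had 89.9 and 84.3 CPM in control and 52.3 and 53.4 CPM in butyrate, and fell by 0.72 (SE 0.05, adjusted p = 2.53e-09), the largest change among the 7 steps up to farnesyl diphosphate. Fdps, farnesyl diphosphate synthase, stands where the pathway also feeds protein prenylation, dolichol and ubiquinone. It had 286 and 283 CPM in control and 222 and 235 CPM in butyrate, and fell by 0.32 (SE 0.04, adjusted p = 1.1e-05). All 7 genes up to this branch fell, with a median of -0.47.

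Past the branch, 3 enzymes commit the pathway to sterols. Fdft1, squalene synthase, had 27.8 and 25.6 CPM in control and 18.1 and 19.1 CPM in butyrate and fell by 0.52 (SE 0.06, adjusted p = 1.16e-06). Sqle, squalene epoxidase, had 52.0 and 51.1 CPM against 33.8 and 34.8 CPM and fell by 0.59 (SE 0.05, adjusted p = 2.82e-08). Lss (chromosome 10, 76531588 to 76557138), which closes the rings to form lanosterol, had 21.5 and 21.3 CPM in control and 11.02 and 10.5 CPM in butyrate. It was 49.7% lower in butyrate, a fall by 0.99 (SE 0.06, adjusted p = 1.15e-09), the largest among the 18 synthesis genes.

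The 8 genes after lanosterol were the least uniform, with 6 lower, 1 higher and 1 that did not pass. Cyp51 (chromosome 5, 4081145 to 4104746), the lanosterol demethylase, had 93.4 and 87.1 CPM in control and 48.9 and 50.6 CPM in butyrate and fell by 0.86 (SE 0.05, adjusted p = 4.89e-10). Dhcr7, a reductase of the last steps, had 18.3 and 18.7 CPM against 11.2 and 10.9 CPM and fell by 0.74 (SE 0.06, adjusted p = 3.26e-08). These were the largest decreases of the late steps, near those of Lss and Idi1. Msmo1, the methyl sterol oxidase, had 50.5 and 47.6 CPM against 28.2 and 31.05 CPM and fell by 0.73 (SE 0.06, adjusted p = 2.3e-08). Sc5d, which desaturates lathosterol, had 35.1 and 33.8 CPM against 22.4 and 23.8 CPM and fell by 0.57 (SE 0.05, adjusted p = 1.46e-07). Nsdhl, which removes the oxidised methyl groups, had 16.4 and 17.2 CPM against 12.3 and 12.4 CPM and fell by 0.44 (SE 0.06, adjusted p = 8.82e-06). All control values of these 5 genes lay above all butyrate values, but groups did not overlap for 85.9% of all genes tested.

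The other 3 late genes stood apart from them. Ebp, a sterol isomerase, had 69.2 and 72.2 CPM in control and 64.0 and 67.4 CPM in butyrate and fell by only 0.11 (SE 0.05, adjusted p = 0.0496). That call did not pass without control replicate 2 (adjusted p = 0.206), without butyrate replicate 1 (0.316) or with DESeq2 (0.201). Hsd17b7, the ketoreductase of the demethylation steps, had 11.3 and 10.7 CPM in control and 10.7 and 10.6 CPM in butyrate, with overlapping groups (log2 fold change -0.04, SE 0.07, adjusted p = 0.604). Its sign turned when every cell was thinned to equal depth (0.02). Tm7sf2 (chromosome 19, 6062821 to 6068373), a sterol reductase related to the lamin B receptor, had 4.44 and 4.15 CPM in control and 5.44 and 5.37 CPM in butyrate. It rose by 0.33 (SE 0.10, adjusted p = 0.00541), but not past the threshold with DESeq2 (adjusted p = 0.0664), with library totals alone (0.216) or with a mitochondrial limit of 5% (0.0602). Vps51 overlaps Tm7sf2 on the same strand, so reads of the shared stretch may have been assigned to either gene. Gm43738 likewise overlaps Fdps on the same strand. Mvd, Fdft1, Cyp51 and Srebf1 overlap the protein-coding genes Gm20388, Ctsb, Akap9 and Rai1 on the opposite strand, and the strand handling of the counts is not given in the sources used here.

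**Figure D2:**
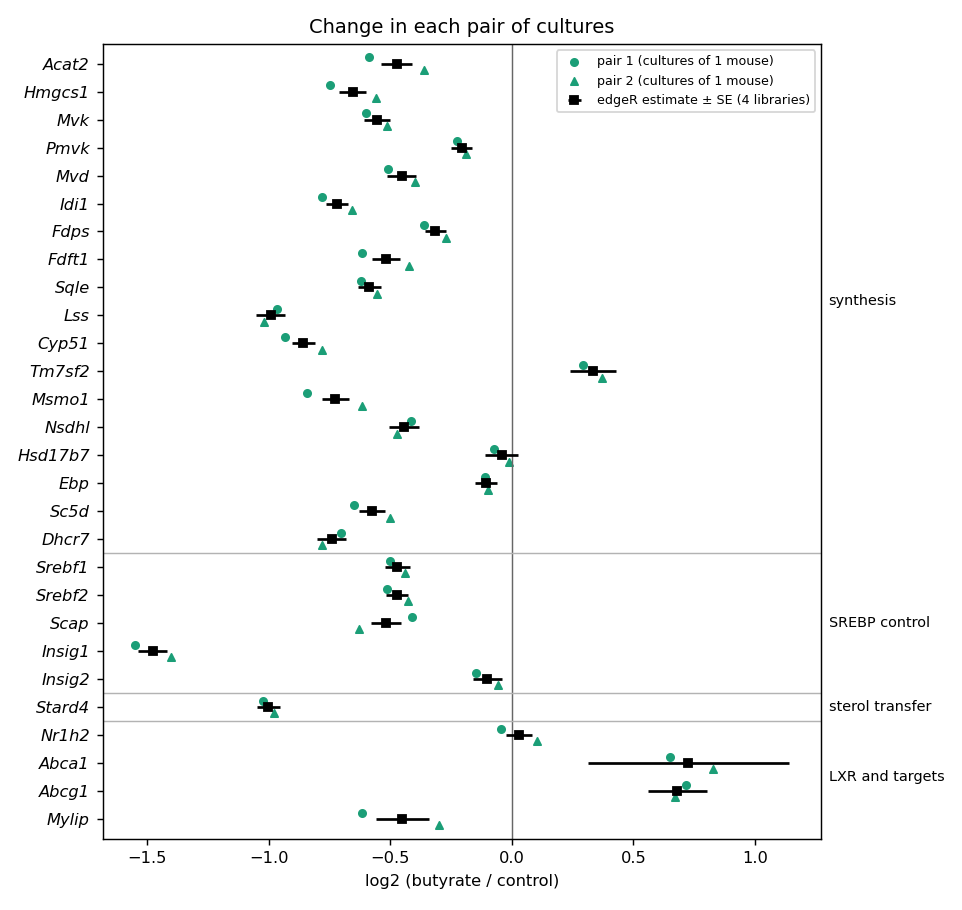
Log2 ratio of butyrate to control for each gene in each of the 2 pairs of cultures (green) and the edgeR estimate with its SE over 4 libraries (black). Both pairs lie left of 0 for all synthesis genes other than Tm7sf2, and Insig1 lies farthest left at -1.55 and -1.40.

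The genes of SREBP control fell with the enzymes. Srebf1 encodes the SREBP that mainly serves fatty acid genes and Srebf2 the one that mainly serves cholesterol genes. Srebf1 had 38.3 and 36.5 CPM in control and 27.1 and 26.9 CPM in butyrate and fell by 0.47 (SE 0.05, adjusted p = 7.33e-07). Srebf2 had 110 and 104 CPM against 77.3 and 77.4 CPM and also fell by 0.47 (SE 0.04, adjusted p = 1.47e-07). Scap, their escort, had 28.4 and 28.9 CPM in control and 21.3 and 18.7 CPM in butyrate and fell by 0.52 (SE 0.06, adjusted p = 2.85e-06). The 3 genes changed by similar amounts, and none overlapped between groups, which was so for 85.9% of all genes tested.

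The 2 INSIG genes differed. Insig1, itself an SREBP target, had 52.1 and 46.7 CPM in control and 17.8 and 17.6 CPM in butyrate, and it fell by 1.48 (SE 0.06, adjusted p = 2.37e-11). Insig2, its relative that is not an SREBP target, had 16.5 and 15.7 CPM in control and 14.9 and 15.1 CPM in butyrate (log2 fold change -0.10, SE 0.06, adjusted p = 0.136). Insig1 was thus 64.1% lower in butyrate, while the 2 groups of Insig2 lay close together without overlap. The difference between the 2 genes was not tested as such. Stard4 (chromosome 18, 33199355 to 33213862), which carries cholesterol between membranes through the cytosol and is an SREBP target, had 53.7 and 51.9 CPM in control and 26.4 and 26.3 CPM in butyrate. It was 50.1% lower, a fall by 1.00 (SE 0.05, adjusted p = 1.15e-10). With Lss and Insig1 it made up the 3 largest decreases among the 28 genes.

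LXR and its targets gave no common direction. Nr1h2 encodes LXR beta and had 34.1 and 30.9 CPM in control and 33.0 and 33.2 CPM in butyrate. Its groups overlapped (log2 fold change 0.03, SE 0.06, adjusted p = 0.646), and its sign turned with library totals alone (-0.17), with thinned cells (-0.01) and without control replicate 2 (-0.05). Abcg1 (chromosome 17, 31057675 to 31117988), a pump that passes cholesterol to lipoproteins, had 4.37 and 5.44 CPM in control and 7.18 and 8.67 CPM in butyrate. It rose by 0.68 (SE 0.12, adjusted p = 0.000444), and the lowest butyrate library was above the highest control. Abca1, the pump that loads apolipoproteins, was barely detected, with 7 and 13 UMIs in the control and 13 and 22 UMIs in the butyrate libraries. These counts gave a log2 fold change of 0.73 (SE 0.41, adjusted p = 0.127). Mylip, a ubiquitin ligase that marks lipoprotein receptors for breakdown, had 5.53 and 5.56 CPM in control and 3.60 and 4.51 CPM in butyrate. It fell by 0.45 (SE 0.11, adjusted p = 0.00195), though not past the threshold with a mitochondrial limit of 5% (adjusted p = 0.0592).

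Genes of myeloid cells, in which Abcg1 is abundant, also moved with butyrate. The summed level of the 7 myeloid markers was 1.87 and 2.38 CPM in control and 13.2 and 14.6 CPM in butyrate. Cd68 and Itgam made up nearly all of it, with 93 and 139 against 606 and 660 UMIs for Cd68 and 8 and 21 against 242 and 274 UMIs for Itgam. Adgre1, C1qa and C1qb were at 0 in every library, and Lyz2 had no UMI in either control library and 1 in each butyrate library. The 6 dendritic markers summed to 32.8 and 27.7 CPM in control and 40.2 and 46.5 CPM in butyrate, a sum carried by H2-Ab1 (1748 and 1798 against 2309 and 2629 UMIs). The other antigen presentation genes of that list were rare and differed more, with 5 and 4 against 111 and 125 UMIs for H2-Eb1, 5 and 2 against 48 and 70 for H2-Aa, and 18 and 50 against 101 and 134 for Cd74. The 4 B cell markers summed to 6.32 and 5.77 CPM against 8.02 and 8.95 CPM. The 3 erythroid markers summed to 0.147 and 0.238 CPM against 0.792 and 0.625 CPM. The part of other cells in the changes of Abcg1 and Mylip was not tested.

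Over all 28 genes, 22 fell, 2 rose and 4 did not pass the test, with a median log2 fold change of -0.47. The 2 libraries of one group did not overlap with those of the other for 26 of the 28 genes, as against 85.9% of all genes tested, so absence of overlap did not set the list apart. With library totals alone as the scale, the median of all genes moved from -0.01 to -0.21. The median of the synthesis genes then moved from -0.54 to -0.74, and its distance from the median of all genes stayed at -0.53. Under that scale Hsd17b7 (-0.24) and Insig2 (-0.30) also passed as lower, and Nr1h2 passed as lower (-0.17, adjusted p = 0.00997). Of all 13487 genes, 6710 were then called lower and 3395 higher. The values of Hsd17b7, Insig2 and Nr1h2 lay near the median of all genes on that scale (-0.21) and are not read as changes particular to them.

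Summed over the 18 synthesis genes, the level was 1087 and 1049 CPM in control and 752 and 783 CPM in butyrate. The difference in means was -300.4 CPM (exact two-sided permutation p = 0.333, the smallest that 2 against 2 libraries allow). To compare single cells at equal depth, each cell was thinned at random to 8000 UMIs, which left out 71 and 112 shallower cells in control and 54 and 68 in butyrate. The median cell then held 7 and 7 synthesis UMIs in control and 5 and 5 in butyrate. The mean was 8.74 and 8.59 against 5.37 and 5.61 UMIs, and the 90th percentile 16 and 16 against 10 and 10 UMIs (exact permutation p = 0.333 for each). Cells with no synthesis UMI made up 1.41 and 1.27% in control and 1.76 and 1.85% in butyrate. Both the median and the upper tail lay lower in butyrate, with few empty cells in any library.

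**Figure D3:**
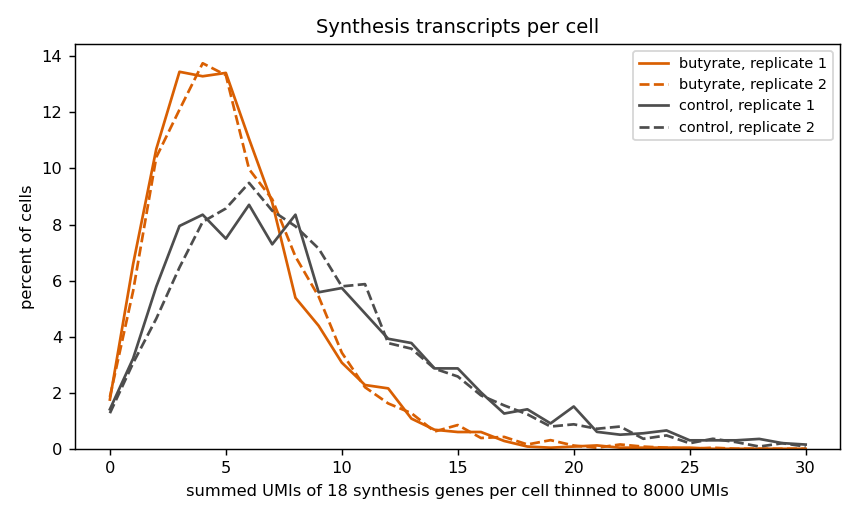
Percent of cells (vertical axis) by the summed UMIs of the 18 synthesis genes in each cell after thinning to 8000 UMIs, for each library. The 2 butyrate curves (orange) peak at 3 and 4 UMIs and the 2 control curves (grey) are broader and reach further right, with medians of 5 and 7 UMIs.

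The share of thinned cells with a UMI is given for 6 genes chosen after their values were seen. Insig1 was detected in 33.5 and 30.4% of control cells and in 12.6 and 12.7% of butyrate cells, and without thinning in 59.7 and 54.8% against 30.9 and 29.5%. Stard4 was detected in 34.7 and 33.9% against 17.4 and 17.7% of thinned cells, and Hmgcs1 in 58.3 and 54.8% against 39.1 and 39.5%. Lss was detected in 16.2 and 15.4% against 7.46 and 8.28%. For these 4 genes every control library lay above every butyrate library. By level in CPM, groups did not overlap in either direction for 85.9% of all genes tested. The exact (Clopper-Pearson) 95% intervals of single libraries, which cover counting error only, were 31.4 to 35.6% for Insig1 in control replicate 1 and 11.3 to 14.0% in butyrate replicate 1. Abcg1 was detected in 4.23 and 5.91% against 5.55 and 6.93%, and Mylip in 5.13 and 5.48% against 2.87 and 3.78%. The B cell gene Cd79b, taken as a background gene, was detected in 5.99 and 4.44% against 6.23 and 7.01%, and the B cell gene Cd79a in at most 0.0399%. The shares of Mylip and of Cd79b did not overlap between groups either, in opposite directions, and those of Abcg1 did. The shares of Abcg1 and Mylip were below that of Cd79b in each library other than control replicate 2, and are not read as differences.

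Barcodes with 1 to 100 UMIs, taken here to hold free RNA rather than a cell, showed the same genes. Such barcodes held 4662693 and 5528354 UMIs for the control libraries and 5058877 and 3968054 for butyrate. Levels in these barcodes are plain CPM, without TMM factors, and are set against plain CPM in cells. Insig1 had 45.3 and 49.2 (control libraries) and 16.8 and 18.6 (butyrate libraries), against 55.5 and 50.3 and against 16.6 and 16.5 in cells, a ratio of 0.815 to 1.13. For Cyp51 the ratio to cells was 0.525 to 0.842. For Abcg1 the low-count barcodes held 4.50 and 5.61 plain CPM in control and 4.94 and 6.30 in butyrate. In these barcodes 25 of the 28 genes had a lower mean level in butyrate than in control, with a median log2 ratio of -0.62. Of the 12759 genes tested in cells that had a UMI in these barcodes of both groups, 60.6% were lower in butyrate, with a median of -0.16. The part of free RNA in the levels of the cells was not tested.

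Genes around the pathway were read from 5 lists, of which the 4 genes with the smallest p are named. Their counts stand against the 36% of all genes called higher and 35.7% called lower in this comparison. SREBP targets outside sterol synthesis, mostly of fatty acid synthesis, fell most uniformly of the 5: 13 of 14 were lower and none higher, with a median of -0.87. Fads1, a fatty acid desaturase, had 25.9 and 24.9 CPM in control and 8.79 and 8.42 CPM in butyrate, a fall by 1.56 (adjusted p = 1.28e-11). Lpin1, a phosphatidate phosphatase, had 19.5 and 17.6 CPM against 5.52 and 6.11 CPM, a fall by 1.67 (adjusted p = 7.46e-11). Scd2, a stearoyl-CoA desaturase, fell by 0.93 (338 and 324 against 169 and 180 CPM, adjusted p = 1.59e-10), and Rdh11, a retinol dehydrogenase, by 1.06 (20.7 and 20.0 against 9.65 and 9.87 CPM, adjusted p = 7.05e-10). These 4 decreases were as large as or larger than that of Cyp51.

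The proteins that process SREBPs or bind INSIG did not move as one, with 9 of 15 lower and 3 higher. Sar1b and Sar1a, GTPases of the coat that carries SCAP and SREBP out of the endoplasmic reticulum, rose. Sar1b had 48.0 and 51.5 CPM in control and 100.3 and 106 CPM in butyrate (log2 fold change 1.05, adjusted p = 7.73e-11), and Sar1a 76.9 and 79.3 against 102 and 103 CPM (0.39, adjusted p = 6.95e-07). Vcp, an ATPase that pulls proteins from that membrane for degradation, fell by 0.51 (315 and 331 against 225 and 228 CPM, adjusted p = 5.64e-08). Rnf139, a ubiquitin ligase that binds INSIG, fell by 0.50 (10.3 and 10.7 against 7.54 and 7.36 CPM, adjusted p = 1.56e-05).

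Of 15 genes of isoprenoid use, 8 were higher and 4 lower, as against 36% and 35.7% of all genes. These counts are small and are not read as a shift of the list. Dhdds, which builds the dolichol chain, had 22.3 and 22.0 CPM in control and 31.5 and 31.7 CPM in butyrate and rose by 0.51 (adjusted p = 2.72e-07). Rabggtb, a subunit of the enzyme that prenylates Rab proteins, rose by 0.40 (29.4 and 29.4 against 37.9 and 39.5 CPM, adjusted p = 3.6e-06). Coq2, of ubiquinone synthesis, rose by 0.42 (21.1 and 22.5 against 29.7 and 28.6 CPM, adjusted p = 5.17e-06). Rce1, the protease that trims prenylated proteins, rose by 0.34 (28.9 and 29.4 against 36.6 and 37.2 CPM, adjusted p = 1.56e-05). The median of this list was 0.18, and the contrast with the synthesis genes was not tested as such.

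Genes of sterol storage, transport and oxysterols were mixed, with 5 higher and 8 lower of 17 tested, near the shares of all genes. Sult2b1, which attaches sulfate to cholesterol and oxysterols, had 11.6 and 12.0 CPM in control and 33.0 and 36.5 CPM in butyrate, and rose by 1.56 (adjusted p = 1.69e-11). Gramd1b and Gramd1a move cholesterol from the plasma membrane to the endoplasmic reticulum. Gramd1b fell by 0.85 (19.8 and 18.8 against 11.4 and 10.1 CPM, adjusted p = 2.93e-08) and Gramd1a by 0.49 (49.6 and 47.6 against 33.7 and 35.3 CPM, adjusted p = 3.13e-07). The lipoprotein receptor gene Vldlr had 43 and 59 UMIs in the control and 7 and 6 UMIs in the butyrate libraries and fell by 3.02 (adjusted p = 8.69e-07). Of 12 further LXR targets and partners, 5 rose and 3 fell, also near those shares, with a median of -0.02. Pltp, a phospholipid transfer protein and LXR target, had 1.19 and 1.09 CPM in control and 3.99 and 4.72 CPM in butyrate (rise by 1.94, adjusted p = 1.38e-08). Arl4c, another LXR target, rose by 0.33 (147 and 138 against 179 and 177 CPM, adjusted p = 8.24e-06). The corepressor Ncor1 fell by 0.76 (172 and 171 against 100.02 and 102 CPM, adjusted p = 3.6e-10) and the coactivator Ncoa1 by 0.48 (8.61 and 8.24 against 6.25 and 5.84 CPM, adjusted p = 7.36e-05).

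Dividing cells make more membrane, so the comparison was repeated within cells of like status for Mki67 and Top2a, transcripts of dividing cells. A UMI of either, after thinning, was present in 85.9 and 85.8% of control cells and in 86.0 and 84.4% of butyrate cells. Cells without one were shallower, with a median depth of 13298.5 and 12740 for the control libraries and 20713 and 19272.5 for butyrate, in UMIs. In cells with a UMI, 21 of the 28 genes fell and 2 rose (Tm7sf2 and Abcg1), with a median of -0.49, when 35.5% of 13322 genes fell and 35.6% rose. In cells without, 21 of the 27 tested genes fell and none rose, with a median of -0.47, when 25.2% of 10567 genes fell and 26.1% rose. The synthesis decrease was therefore measured in both classes. In the cells without, the number that fell was 10 with DESeq2, 11 with all cells thinned and 11 without butyrate replicate 1.

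The change was compared between the 2 classes directly, as the difference of log2 fold changes (cells with a UMI minus cells without). Of all 12758 genes, 9.91% had a higher and 13.7% a lower change in the cells with a UMI. Among the 28 genes, 25 did not pass this test, which does not show that they changed alike in the 2 classes. Abcg1 differed by 1.20 (SE 0.21, adjusted p = 0.000152). In control it had 3.59 and 4.35 CPM in cells with a Mki67 or Top2a UMI and 9.25 and 12.8 CPM in cells without. In butyrate it had 6.69 and 7.80 CPM in cells with and 7.58 and 10.01 CPM in cells without, so the 2 classes were closer. It rose by 0.89 in the cells with a UMI (adjusted p = 5.64e-06), and had a log2 fold change of -0.34 in the cells without (adjusted p = 0.197).

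Scap had the opposite pattern, with a difference of -0.68 (SE 0.14, adjusted p = 0.00106). It had 28.5 and 28.9 CPM in control cells with a UMI and 18.05 and 18.4 CPM in control cells without. In butyrate the classes were level, with 20.2 and 17.7 CPM in cells with and 20.6 and 17.9 CPM in cells without. With all cells thinned the difference was -0.47 and did not pass (adjusted p = 0.145). Pmvk had 73.3 and 72.5 CPM in control cells with a UMI against 62.3 and 63.1 CPM in butyrate, and 66.6 and 70.5 against 48.5 and 50.2 CPM in cells without. Its difference of 0.26 (SE 0.09, adjusted p = 0.0426) did not pass without control replicate 2 (0.20, adjusted p = 0.311), butyrate replicate 1 (0.24, 0.167) or butyrate replicate 2 (0.28, 0.0827).

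**Figure D4:**
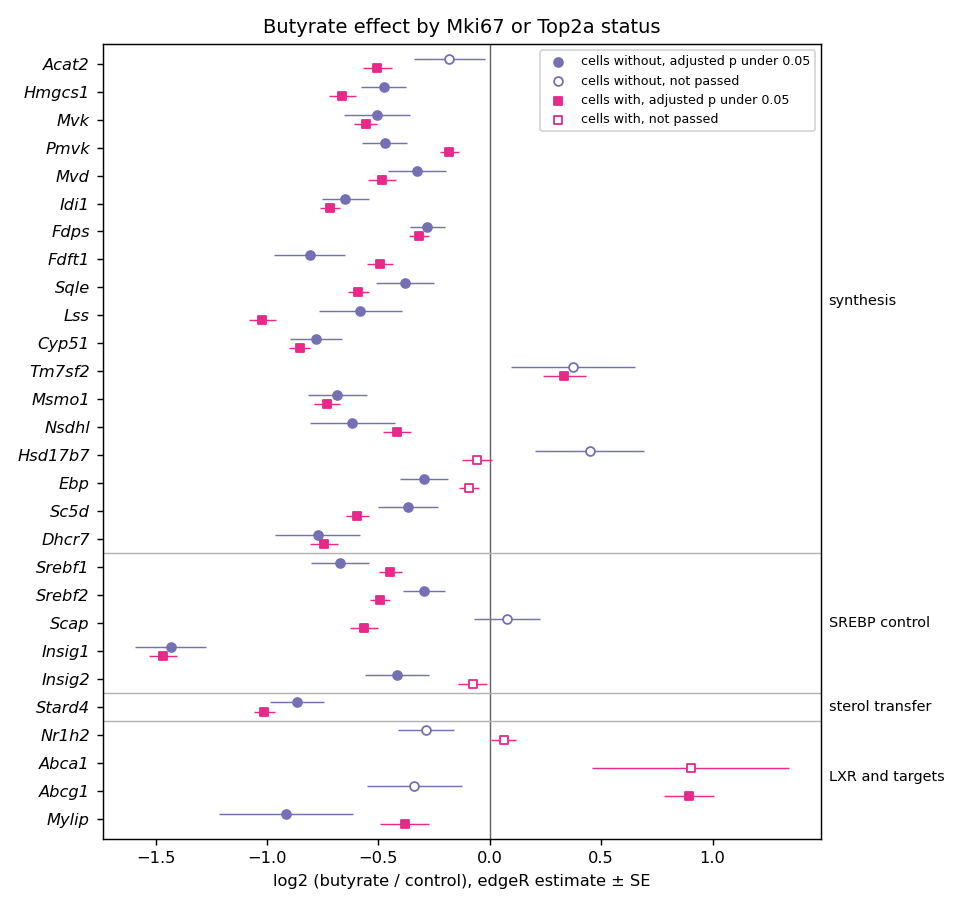
Butyrate effect on each gene as the log2 ratio to control with its SE (edgeR) in cells without (purple circles) and with (pink squares) a Mki67 or Top2a UMI; filled symbols have an adjusted p under 0.05. Insig1 lies at -1.43 and -1.47, whereas Abcg1 lies at -0.34 and 0.89; Abca1 was not tested in cells without.

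Il7r encodes CD127, the IL-7 receptor chain named in the title of the study and a marker of memory precursors. Cells with and without an Il7r UMI were compared within each library. An Il7r UMI was present in 27.4 and 25.2% of thinned control cells and in 28.3 and 30.7% of butyrate cells. In control, cells with one had lower synthesis transcripts: 14 of the 18 synthesis genes were lower and none higher. Over the 28 genes 16 were lower and 5 higher, when 22.8% of 12847 genes were lower and 20.3% higher. The 5 were Insig2 (0.22), Nr1h2 (0.15), Abca1 (2.48), Abcg1 (1.02) and Mylip (0.70), so all 4 genes of the LXR group were higher. Without control replicate 2 the calls of Insig2 (adjusted p = 0.802), Nr1h2 (0.267) and Abca1 (0.426) did not pass. The call of Nr1h2 failed with each of the 4 libraries left out (adjusted p from 0.0528 to 0.267). Abca1 rested on 3 and 9 UMIs in cells with an Il7r UMI and 4 and 4 UMIs in cells without.

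In butyrate the same contrast was called for fewer genes, both in this group and over all genes. Of the thinned cells with an Il7r UMI, 307 of 544 and 358 of 635 in control had exactly 1. For the butyrate libraries it was 501 of 709 and 521 of 797. The part of cells with exactly 1 Il7r UMI in these contrasts was not tested, beyond the class limit of 2 UMIs given below. Among the 28 genes 13 were lower, 12 of them synthesis genes and the other Insig1, and none higher, when 13.2% of the 12847 genes were lower and 8.52% higher. The number lower was 6 without butyrate replicate 1, 8 without butyrate replicate 2, 7 with a mitochondrial limit of 5% and 5 with all cells thinned. The median over the synthesis genes was -0.33 in control and -0.20 in butyrate, but Mvk, Pmvk, Fdft1, Tm7sf2, Ebp and Sc5d had the lower ratio in butyrate. Hmgcs1 had the lower ratio in control. In control it had 124 and 105 CPM in cells with an Il7r UMI and 165 and 148 CPM in cells without. In butyrate it had 89.0 and 88.6 CPM in cells with and 94.9 and 95.8 CPM in cells without.

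The difference of the butyrate effect between the classes (cells with an Il7r UMI minus cells without) was higher in 13.2% and lower in 12.2% of the 12847 genes. Among the 28 genes it was higher for 6 and lower for 4. The 6 were Hmgcs1 (0.35, adjusted p = 2.94e-08), Idi1 (0.24, 0.00214), Sqle (0.26, 0.00793), Cyp51 (0.23, 0.00365), Msmo1 (0.31, 0.00247) and Scap (0.37, 0.00206). The 4 were Ebp (-0.16, 0.0394), Nr1h2 (-0.25, 0.0166), Abcg1 (-0.74, 0.000616) and Mylip (-1.10, 1.18e-05). Mylip had 7.55 and 8.13 CPM in control cells with an Il7r UMI and 4.82 and 4.86 CPM in control cells without. In butyrate the order turned, with 2.73 and 3.86 CPM in cells with and 3.90 and 4.79 CPM in cells without. Abcg1 had 6.01 and 9.57 against 3.62 and 4.10 CPM in control and 8.06 and 9.92 against 6.86 and 7.89 CPM in butyrate.

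Leaving out 1 library moved several of these calls. Without control replicate 2, Abcg1 (-0.43, adjusted p = 0.248), Sqle (0.24, 0.0716), Ebp (-0.14, 0.221) and Nr1h2 (-0.23, 0.128) did not pass. Without control replicate 1, Msmo1 (0.25, 0.0509), Ebp (-0.17, 0.09) and Nr1h2 (-0.26, 0.0543) did not. Without butyrate replicate 1, Sqle (0.23, 0.102), Cyp51 (0.15, 0.221) and Ebp (-0.13, 0.261) did not, and without butyrate replicate 2, Idi1 (0.20, 0.0628), Msmo1 (0.26, 0.0771), Ebp (-0.20, 0.0596) and Nr1h2 (-0.24, 0.096) did not. Hmgcs1 and Mylip passed with each library left out in turn.

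The 2 Il7r classes also differed in depth and in Mki67 or Top2a status. Cells with an Il7r UMI were shallower, at a median depth of 16403.5 and 16374 (control libraries) and 22454 and 20898 (butyrate libraries), than cells without, at 24816 and 23208 and at 26559 and 25106. A Mki67 or Top2a UMI was present in 71.5 and 71.5% of the Il7r cells of control, against 91.3 and 90.6% of the other cells. In butyrate the shares were 80.8 and 80.8% against 88.0 and 85.9%. Within cells with a Mki67 or Top2a UMI only, a restriction chosen after seeing the data, 13 genes were lower and 3 higher in control, when 17.5% of 12689 genes were lower and 14.7% higher. In butyrate 9 were lower and none higher, when 11.1% of these genes were lower and 6.34% higher. The difference between the groups, higher in 8.18% and lower in 7.87% of all genes, then passed for 1 of the 28 genes in each direction, Hmgcs1 (0.22, adjusted p = 0.00183) and Mylip (-0.996, adjusted p = 0.000996).

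**Figure D5:**
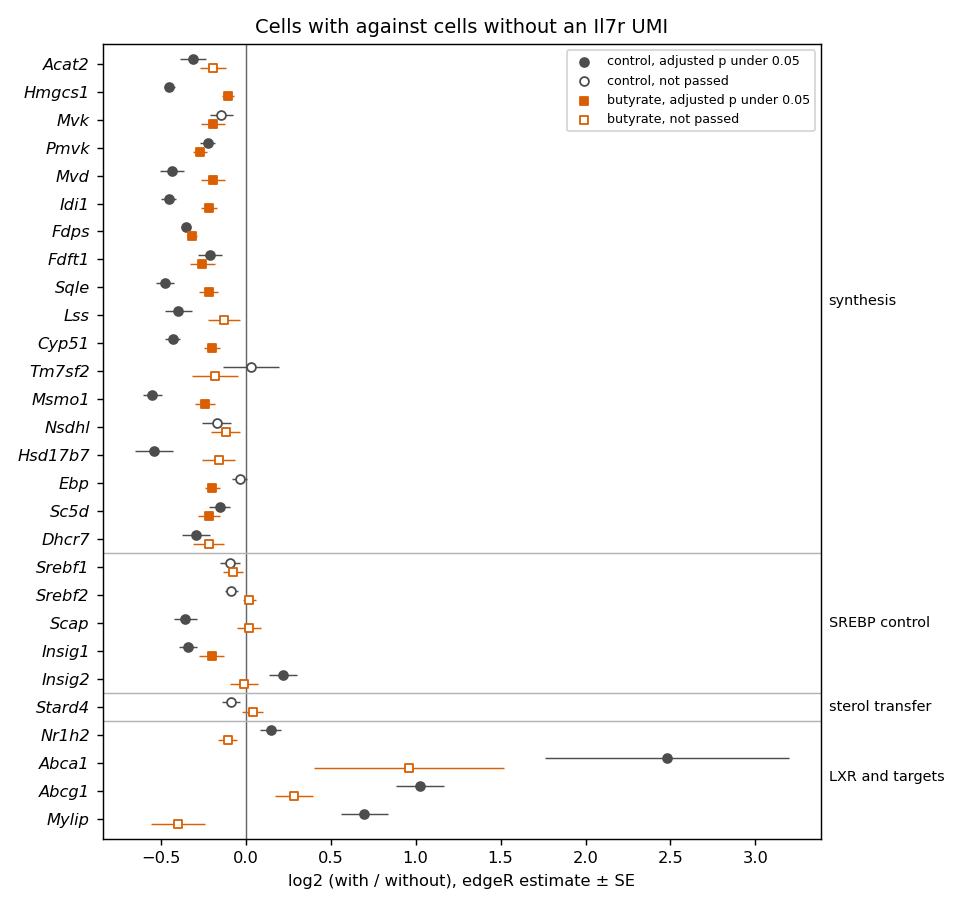
Log2 ratio of cells with to cells without an Il7r UMI, with its SE (edgeR), within control (grey circles) and butyrate (orange squares); filled symbols have an adjusted p under 0.05. Most synthesis genes lie left of 0 and nearer to it in butyrate (Hmgcs1 at -0.45 and -0.10), and Mylip lies at 0.70 in control and -0.40 in butyrate.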

How the data were processed

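For each library the authors deposited raw UMI counts, genes by barcodes, with empty droplets included. Cell Ranger 4, Seurat 4.3 and the mm10 build appear in the submitters' processing notes. Nothing used here states the annotation release, the strand handling or whether intronic reads counted.

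Cells were called in each library at 10% of the 99th percentile of the top 3000 barcodes, with at least 500 genes and under 10% mitochondrial UMIs. No doublet caller was run, and an alternative left out the 2% of cells with most UMIs. UMIs were summed over cells of each library, or of each library and class, and compared in edgeR 4.0.16 (R 4.3.3) by quasi-likelihood, after TMM scaling and edgeR's low-count filter, with a robust fit and no term beside group. In class comparisons the library was a block. Classes came from cells thinned to 8000 UMIs, with at least 1 UMI of the class gene. Precision is limited by 2 libraries a group. The fits were tested on simulated counts with known changes. There the test between groups recovered 88% of genes changed by 0.5 on the log2 scale. The test of a difference between the Mki67 or Top2a classes recovered 34% at 0.5 and 84% at 1. Small differences between classes can thus be missed.

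The replicate number stands for the mouse, per the labels. Deviations from group means correlated by only 0.0594 (Spearman 0.0531) between libraries of the same mouse, and with the mouse as a block the common coefficient of variation fell from 0.0405 to 0.0336. The members, lists and tests were chosen with earlier results of these data known. All 28 genes were named, and of each further list the 4 tested genes with the smallest p. Alternatives were library totals, no low-count filter, the block, DESeq2 1.42.0, a mitochondrial limit of 5%, thinned cells, class limits of 2 UMIs and each library left out. Some genes of the pathway are not reported here.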

Additional observations from a re-analysis of the deposited data

Results flagged for a closer look

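In 13 cases the butyrate effect on a gene differed, by a test of the difference itself, between 2 classes of cells in the same libraries. Over all 12758 genes, 9.91% were called higher and 13.7% lower between the Mki67 or Top2a classes. Between the Il7r classes, 13.2% of 12847 genes were called higher and 12.2% lower, so such calls were common. Several of the 13 calls did not pass with 1 library left out, as given above. Between cells with and without a Mki67 or Top2a UMI, the log2 differences were 0.26 for Pmvk, -0.68 for Scap and 1.20 for Abcg1. Between cells with and without an Il7r UMI, they were 0.35 for Hmgcs1, 0.24 for Idi1, 0.26 for Sqle, 0.23 for Cyp51, 0.31 for Msmo1, -0.16 for Ebp, 0.37 for Scap, -0.25 for Nr1h2, -0.74 for Abcg1 and -1.10 for Mylip. Scap and Abcg1 appear in both lists, each with opposite signs. The Il7r classes overlap with the Mki67 or Top2a classes and differ in depth. Those parts were not tested, beyond the restriction to cells with a Mki67 or Top2a UMI given above.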

How the results depend on the processing

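In all cells, 21 or more of the 28 genes fell under every alternative run, and the number that rose was 1 in place of 2 with library totals alone, with DESeq2 and with a mitochondrial limit of 5%. The same settings gave 1 in place of 2 in cells with a Mki67 or Top2a UMI. The median of the synthesis genes was -0.74 with library totals alone. In cells without a Mki67 or Top2a UMI, 10 genes fell with DESeq2, 11 with thinned cells and 11 to 21 with a library left out (11 without butyrate replicate 1). With the replicate block (the pairing by mouse), 22 genes fell and 2 rose in all cells, 21 and 2 in cells with a Mki67 or Top2a UMI and 21 and 0 in cells without, and the median of the synthesis genes was -0.54. It changed no call of the 28 genes.

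The test of the difference between Mki67 or Top2a classes called 1 gene higher with library totals alone, no filter, the top 2% of cells left out or thinned cells, and 4 with a class limit of 2 UMIs. It called 2 lower with library totals alone, a 5% mitochondrial limit or the class limit of 2, and 1 to 5 higher (5 without butyrate replicate 2) and 1 to 2 lower with a library left out. The Il7r contrast in control called 3 genes higher with no filter, thinned cells or only cells with a Mki67 or Top2a UMI, 2 with a class limit of 2, and 2 to 4 with a library left out (2 without control replicate 2). In butyrate it called 1 higher with library totals alone or the top 2% left out, 7 lower with the 5% limit, 5 lower with thinned cells, and 0 to 1 higher and 6 to 13 lower with a library left out. The difference between groups was lower for 2 genes with no filter, thinned cells or a class limit of 2, higher for 3 with the 5% limit, and 1 in each direction within cells with a Mki67 or Top2a UMI. With a library left out it was lower for 1 to 3 genes (1 without control replicate 2) and higher for 4 to 6. Nr1h2 reversed with library totals alone (-0.17), thinned cells (-0.0092) and without control replicate 2 (-0.046, in a range up to 0.091 with a library left out), and Hsd17b7 with thinned cells (0.015). The causes were not tested. Where leaving out a library left 1 in a group, it was assumed to vary like the others.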
